A study of Homo sapiens with 9 samples.

Results

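Untreated PC9 cells sorted in S phase were compared with untreated PC9 cells sorted in G1. PC9 is a human lung adenocarcinoma line driven by a mutant epidermal growth factor receptor (EGFR). The comparison used 4 of the 9 libraries of the series: G1 clone 1, G1 clone 7, S clone 1 and S clone 7, all from day 0, before any drug. The other libraries were 1 untreated G2 library of clone 1, set beside the 4 here without a test, and 4 libraries of cells kept in 500 nM osimertinib, an EGFR inhibitor, for 28 days, which served only in alternative fits. All cells carried the FUCCI4 reporter, which adds fluorescent fragments of CDT1 and geminin (GMNN), and were fixed with glyoxal, gated first on DAPI and then on the reporter's colours, and their poly(A) RNA was sequenced. Each clone is 1 cell population, and the labels do not say whether the sorted fractions of a clone came from separate cultures. The p-values therefore measure only the spread between these libraries, which may be technical.

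In G1 a cell decides whether to copy its genome: cyclin D and cyclin E kinases release the E2F transcription factors, which switch on the genes for replication. In S phase the origins fire, the forks copy DNA, histones are made in step with it, and cyclin A takes over from cyclin E. The genes for mitosis start to be transcribed before mitosis itself, through B-MYB and FOXM1 acting with the MuvB complex, and are repressed in early G1 by the DREAM complex. A sorted G1 or S fraction holds cells spread over the length of its phase.

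Levels are given as log2 of scaled reads plus 1, with clone 1 before clone 7 where 2 values stand together. A log2 fold change is the mean S level minus the mean G1 level within clones (n = 2 clones). The standard error (SE) beside it is the moderated one of limma, which borrows from other genes. It is not the spread of the 2 clone differences of that gene alone. A gene was called at a Benjamini-Hochberg adjusted p under 0.05 from limma, fitted on all 12079 tested genes with the clone as a block. The 2 phases differed at 176 of these genes, 1.46% of those tested: 132 were higher in S (1.09%) and 44 lower (0.364%). Of the called genes, 109 were at least 2-fold higher and 19 at least 2-fold lower. All 176 had 1 direction in both clones, which a paired fit nearly requires and which held for 7647 of all 12079 tested genes, and 1914 genes had an unadjusted p under 0.05. Over all tested genes the median log2 fold change was -0.04.

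These calls rested on the clone block. Without it limma called 0 genes (398 at an unadjusted p under 0.05), and with it on all 9 libraries also 0 (695). With 4 libraries and 2 clones the paired fit has 1 residual degree of freedom and borrows the rest of its error estimate from other genes. Leaving out 1 library, in the fit of 9 with the clone block, gave 0 calls without G1 clone 1, 10 without G1 clone 7, 6 without S clone 1 and 5 without S clone 7. Other scalings raised the counts and shifted their balance: genes higher in S made up 75% of the calls as deposited, 65.2% of 460 with median-of-ratios scaling and 64% of 400 with quantile scaling. Each of those included at least 174 of the 176 genes.

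Depth differed strongly. Over 1 span per gene, G1 clone 1 held 108.7 M (mega) reads, G1 clone 7 8.83 M, S clone 1 47.3 M and S clone 7 30.3 M, a 12.3-fold range. Over all 9 libraries the mean was 43.0 M, more than the average depth that the labels state, and they do not explain the gap. What is called a read here is the step between values of a library. The 2 clones agreed in part, with a correlation of 0.397 between their S minus G1 differences over the 12079 genes, given as a description across genes that share libraries. Among the 132 genes higher in S, the difference was larger in size in clone 1 for 109, against 4855 of all 12079 tested genes. Their levels in G1 were higher in clone 7 than in clone 1 for 101 of the 132, against 6828 of the 12079, by a median of 0.52 against 0.10 over all tested genes, while in S the same median was 0.06 against 0.03. Whether the purity of the G1 fractions or their depth takes part in this was not tested.

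**Figure D1:**
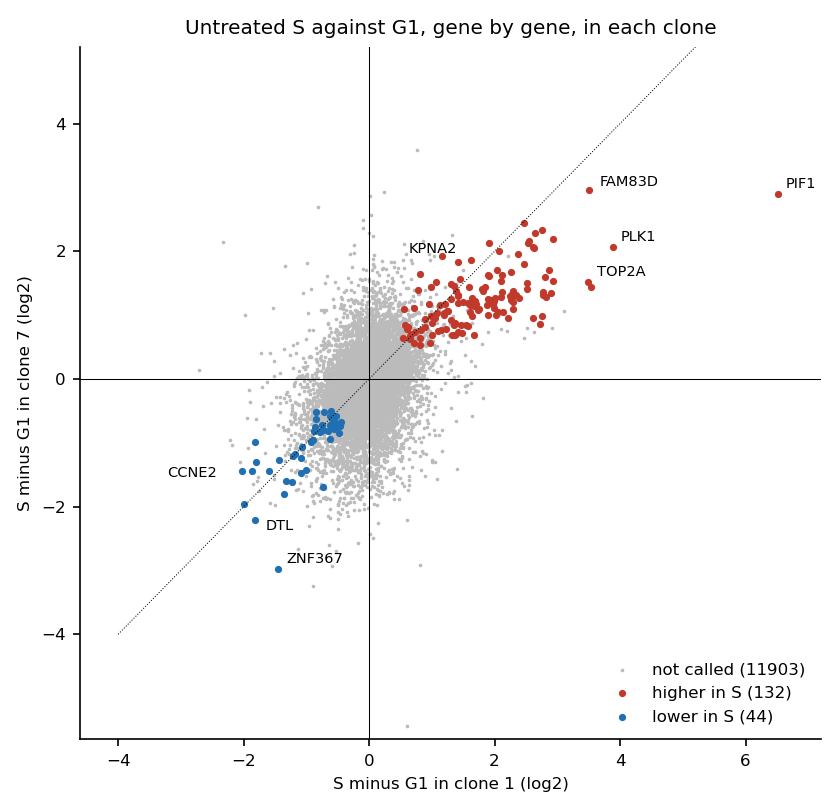
Difference between S and G1 in clone 1 (horizontal axis, log2) and in clone 7 (vertical axis, log2), 1 point per tested gene. The 132 genes called higher in S (red) and the 44 called lower (blue) lie in the upper right and lower left quadrants, and most red points lie below the dotted line of equal difference, on the side of clone 1.

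The genes higher in S included 44 of the 50 tested genes of G2 and mitosis. The genes lower in S included CCNE1, CCNE2, E2F1, DTL and MSH6 of the cell cycle and DNA repair, 6 ribosomal protein genes, and INHBA and MUC16 outside the cell cycle. Most replication genes were called in neither direction, as were 11903 of all 12079 tested genes. In sorted populations a difference in the share of cells that express a gene and a difference in RNA per cell cannot be told apart. Of the 132 higher genes, 90 belonged to at least 1 of the gene lists used here, and of the 44 lower genes 15 did. The lists are described below by their counts and medians. Counts of called members stand against 1.09% of all tested genes called higher and 0.364% called lower.

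**Figure D2:**
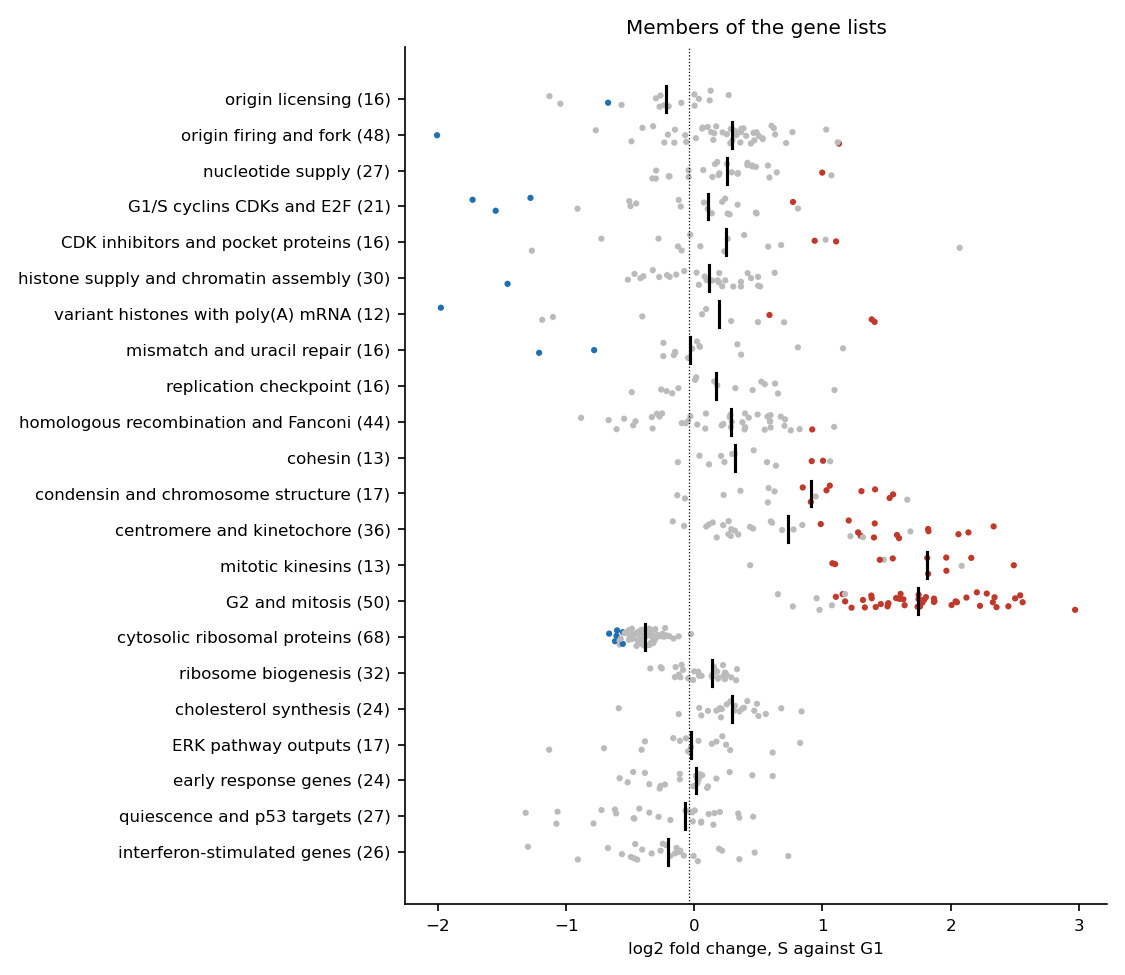
Log2 fold change of S against G1 (horizontal axis) for the tested members of 22 gene lists, with the number of tested members in brackets. Red points were called higher in S, blue points lower and grey points were not called; black bars are list medians, the dotted line is the median of all tested genes, and the vertical scatter within a row carries no value.

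The E cyclins, CCNE1 and CCNE2, were lower in S. CCNE1, cyclin E1, the partner of CDK2 at the start of replication, stood at 12.31 and 12.61 in G1 and at 10.51 and 11.31 in S, so that both S libraries lay below both G1 libraries. Its log2 fold change was -1.55 ± 0.20 (SE), or 2.93-fold lower (adjusted p = 0.00711, chromosome 19, 29812556 to 29823777, the coding span in GRCh38). CCNE2, its paralogue, stood at 10.89 and 9.64 in G1 and 8.87 and 8.20 in S, a log2 fold change of -1.73 ± 0.31 (adjusted p = 0.0326). It was lower still in the G2 library, at 5.56, whereas CCNE1 stood at 10.55 there, close to S clone 1.

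E2F1, the activator that drives cyclin E and the replication genes, followed the cyclins. Its levels were 12.27 and 12.09 in G1 and 11.19 and 10.62 in S, without overlap, and 9.09 in G2. The log2 fold change was -1.28 ± 0.19 (adjusted p = 0.0153, chromosome 20, 33676732 to 33686264). E2F8, a repressor of late S phase, was not called at 0.34 ± 0.19 (adjusted p = 0.417). MYBL2, which encodes B-MYB, was the only member of the G1/S list called higher, at 14.36 in both G1 libraries and 15.34 and 14.93 in S (0.77 ± 0.14, adjusted p = 0.032). In that list of cyclins, CDKs and E2F genes, 1 of 21 tested members was higher and 3 were lower, with a median of 0.10.

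Members of this list did not all move alike in the 2 clones. CDK6, a partner of cyclin D, stood at 7.40 and 10.26 in G1 and 7.43 and 8.41 in S, so clone 1 held its level and clone 7 had less in S. CDC25A, the phosphatase that activates CDK2, differed by -1.04 in clone 1 and 0.03 in clone 7. Neither was called (adjusted p = 0.383 and 0.446). CCND1, cyclin D1, differed by -0.02 and 0.29 (adjusted p = 0.728).

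**Figure D3:**
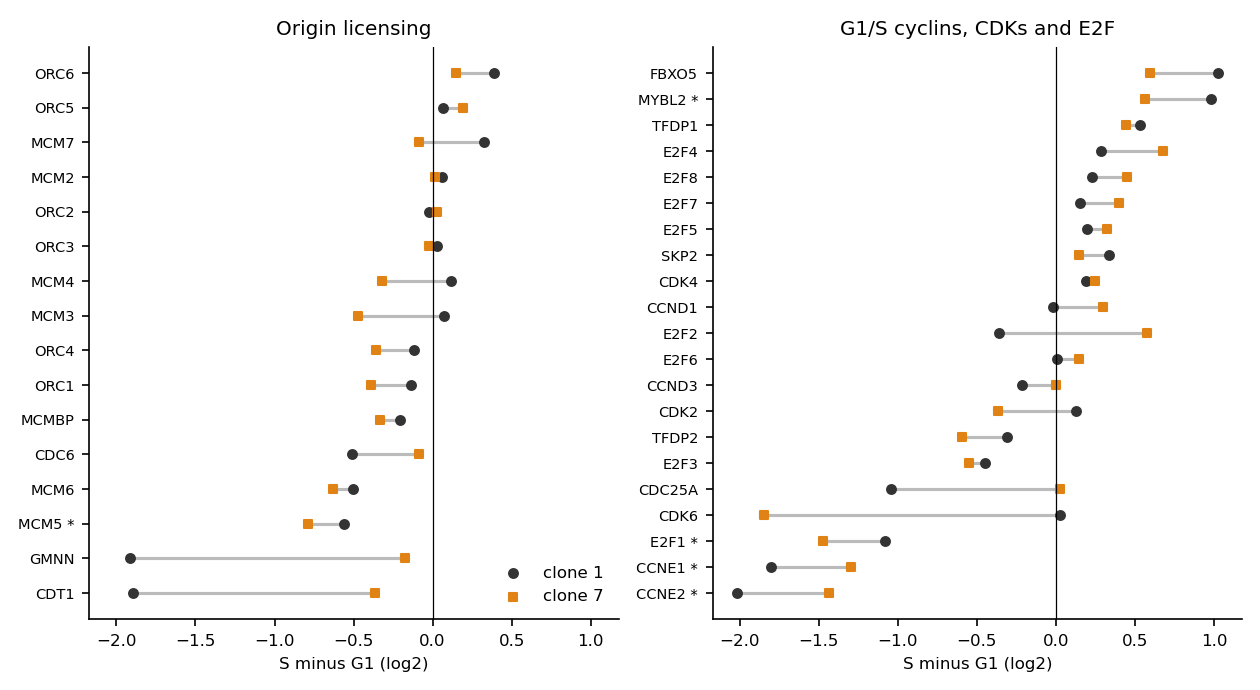
S minus G1 (horizontal axis, log2) in clone 1 (dark circles) and clone 7 (orange squares) for the tested genes of origin licensing (left) and of the G1/S list (right), ordered by their mean; an asterisk marks a called gene. CCNE1, CCNE2, E2F1 and MCM5 lie left of 0 in both clones, while CDT1, GMNN, CDK6 and CDC25A differ widely between clones.

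Other genes lower in S included DTL and CDCA7. DTL, the adaptor that sends CDT1 and p21 to destruction during S phase, had the largest decrease among the genes named by rule: 12.09 and 12.03 in G1 against 10.28 and 9.82 in S, and 8.76 in G2. This is a log2 fold change of -2.01 ± 0.21, or 4.02-fold (adjusted p = 0.0043, chromosome 1, 212035891 to 212102940). CDCA7, a chromatin factor that recruits the HELLS remodeller, fell from 13.37 and 12.95 to 12.05 and 11.35 (-1.46 ± 0.16, adjusted p = 0.0043). ZNF367 and FAM111B, chosen after their values were seen, were also lower, by 4.65-fold and 2.68-fold (adjusted p = 0.0479 and 0.0447). ZNF367 rests on 112 and 39 reads in the S libraries.

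The promoters of the genes that moved in each direction are shown because the words they hold are those through which cell cycle genes are read. The CHR word TTTGAA, the cell cycle gene homology region bound by MuvB complexes, marks genes of G2 and mitosis, CCAAT is bound by NF-Y, and TTTCGCGC, TTTGGCGC and TTTCCCGC are E2F words. Each line gives 120 bases 5′ of the RefSeq start site on the strand of the gene (GRCh38.p14), with these words, on either strand, in capitals. The upper 3 genes were higher in S and the lower 3 were lower.

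PLK1: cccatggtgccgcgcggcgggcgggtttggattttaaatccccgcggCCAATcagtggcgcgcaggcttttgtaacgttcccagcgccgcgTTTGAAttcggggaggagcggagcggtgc
DEPDC1: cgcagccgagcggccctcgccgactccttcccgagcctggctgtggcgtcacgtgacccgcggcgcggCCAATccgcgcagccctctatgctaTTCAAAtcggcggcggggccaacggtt
CDCA8: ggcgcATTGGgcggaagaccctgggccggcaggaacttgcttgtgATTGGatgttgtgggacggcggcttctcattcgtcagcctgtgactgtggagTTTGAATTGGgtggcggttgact
DTL: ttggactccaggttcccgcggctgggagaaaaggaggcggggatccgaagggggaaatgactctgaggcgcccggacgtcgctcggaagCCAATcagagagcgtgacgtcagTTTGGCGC
CDCA7: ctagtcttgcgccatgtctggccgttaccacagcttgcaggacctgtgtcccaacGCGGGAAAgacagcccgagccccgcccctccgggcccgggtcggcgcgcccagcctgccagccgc
E2F1: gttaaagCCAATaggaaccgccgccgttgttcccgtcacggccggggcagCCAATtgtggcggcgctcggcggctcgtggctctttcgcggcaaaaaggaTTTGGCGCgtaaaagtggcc

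In the order printed, these windows are chr16:23678769-23678888 (plus strand) for PLK1, chr1:68497083-68497202 (minus) for DEPDC1, chr1:37692396-37692515 (plus) for CDCA8, chr1:212035628-212035747 (plus) for DTL, chr2:173354752-173354871 (plus) for CDCA7 and chr20:33686386-33686505 (minus) for E2F1. In CDCA8 the CHR word and a reversed CCAAT overlap. These 6 were picked because they hold the words, so they say nothing of how common the words are.

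Counted over whole RefSeq windows, from 250 bases before to 50 after the start, the CHR word (TTTGAA, both strands) stood in 52.6% of the 137 windows of the higher genes, of which 111 of 132 were matched. It stood in 18% of the 50 windows of the lower genes (32 of 44 matched), in 10.3% of the 14097 windows of all tested genes and in 15.2% of all 35116 windows. CCAAT was present in 65.7%, 40%, 34.9% and 34.6% of the same 4 sets. CHR and CCAAT stood together in 41.6% of the windows of higher genes, 14% of those of lower genes and 4.18% of those of tested genes. The 3 E2F words (both strands) stood in 6.57%, 10%, 4.23% and 2.74%. A word in a window is a description of its letters and no evidence of binding, and windows of 1 gene can overlap.

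The genes that license origins in G1 were mostly not called, as were 11903 of all 12079 tested genes. Of 16 tested, 0 were higher in S and 1 was lower, against 1.09% and 0.364% of all tested genes. The list median was -0.22. The called gene, MCM5, a subunit of the helicase loaded on origins, stood at 15.13 and 15.06 in G1 and 14.57 and 14.27 in S (-0.67 ± 0.12, adjusted p = 0.0374), and at 12.69 in G2. MCM6, another subunit, differed by -0.57 ± 0.13 without a call (adjusted p = 0.0829), and MCM2 by 0.04 ± 0.13 (adjusted p = 0.916). CDC6, which loads the helicase, differed by -0.30 ± 0.15 (adjusted p = 0.362).

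CDT1, the other loader, and GMNN, its inhibitor, carry the reporter fragments, whose reads may fall on the same coding spans. CDT1 stood at 15.65 and 12.79 in G1 and 13.76 and 12.43 in S, and GMNN at 15.39 and 12.93 in G1 and 13.48 and 12.75 in S. In the G2 library of clone 1 they stood at 14.02 and 14.81. Of the 4 libraries compared, G1 clone 1 was the highest for both genes. The differences were -1.90 and -0.36 for CDT1 (adjusted p = 0.113) and -1.91 and -0.18 for GMNN (adjusted p = 0.169), and neither gene was called. They check the gates poorly, since the reporter acts through protein stability and its mRNA cannot be told apart from the endogenous one here.

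Genes of origin firing and the fork lay slightly above the median of all genes. Of 48 tested, 37 had a positive difference, against 5513 of all 12079 tested genes. Only DBF4 was called higher and only DTL lower, and the median was 0.30. DBF4, which activates the CDC7 kinase that fires origins, stood at 10.76 and 11.47 in G1, 12.14 and 12.36 in S, and 13.18 in G2 (1.13 ± 0.20, adjusted p = 0.0303). TICRR, which helps load CDC45 at origins, reached 1.12 ± 0.24 (adjusted p = 0.0651), and LIG1, the ligase that seals Okazaki fragments, 0.62 ± 0.13 (adjusted p = 0.0595). PCNA, the sliding clamp, stood at 15.38 and 15.69 in G1 and 15.50 and 15.43 in S, so the groups overlapped (-0.07 ± 0.13, adjusted p = 0.811).

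Nucleotide supply gave 1 call among 27 tested genes (3.70%), against 1.46% of all tested genes, with a median of 0.26. RRM1, the large subunit of ribonucleotide reductase, was 2-fold higher in S: 12.93 and 12.77 in G1 and 13.97 and 13.72 in S, without overlap (1.00 ± 0.14, adjusted p = 0.00948, chromosome 11, 4095013 to 4138383). RRM2, the small subunit, differed by 0.64 ± 0.15 (adjusted p = 0.0847), TK1, thymidine kinase, by 0.59 ± 0.15 (0.102) and TYMS, thymidylate synthase, by 0.48 ± 0.16 (0.191). All 3 were higher in both S libraries than in both G1 libraries and were not called. Over all tested genes, 31.1% had groups that did not overlap, in either direction.

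The Seurat S list, 43 genes used to mark S phase in single cells, had 2 members higher in S, RRM1 among them, and 5 lower (DTL, CCNE2, CDCA7, UNG and MCM5). Its median was -0.07, with 0.22 in clone 1 and -0.15 in clone 7. The companion G2/M list separated the fractions: 44 of 53 tested members were higher in S and 0 lower, with a median of 1.60 (2.04 in clone 1 and 1.26 in clone 7). Of all tested genes, 1.09% were called higher and 0.364% lower. This list shares members, TOP2A and CDCA8 among them, with the list of G2 and mitosis described below, so their counts are not separate results.

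In mismatch and uracil repair 2 of 16 tested genes were lower, with a list median of -0.03. MSH6, which recognises mispaired bases behind the fork, stood at 15.48 and 15.61 in G1, 14.48 and 14.19 in S, and 13.92 in G2. This was 2.31-fold lower (-1.21 ± 0.13, adjusted p = 0.0043, chromosome 2, 47783234 to 47806860). UNG, the uracil glycosylase, differed by -0.78 ± 0.14 (adjusted p = 0.0372): it was lower in S within each clone, but S clone 1 at 13.65 lay just above G1 clone 7 at 13.61. NEIL3, a glycosylase, was 2.23-fold higher without a call (adjusted p = 0.0516).

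**Figure D4:**
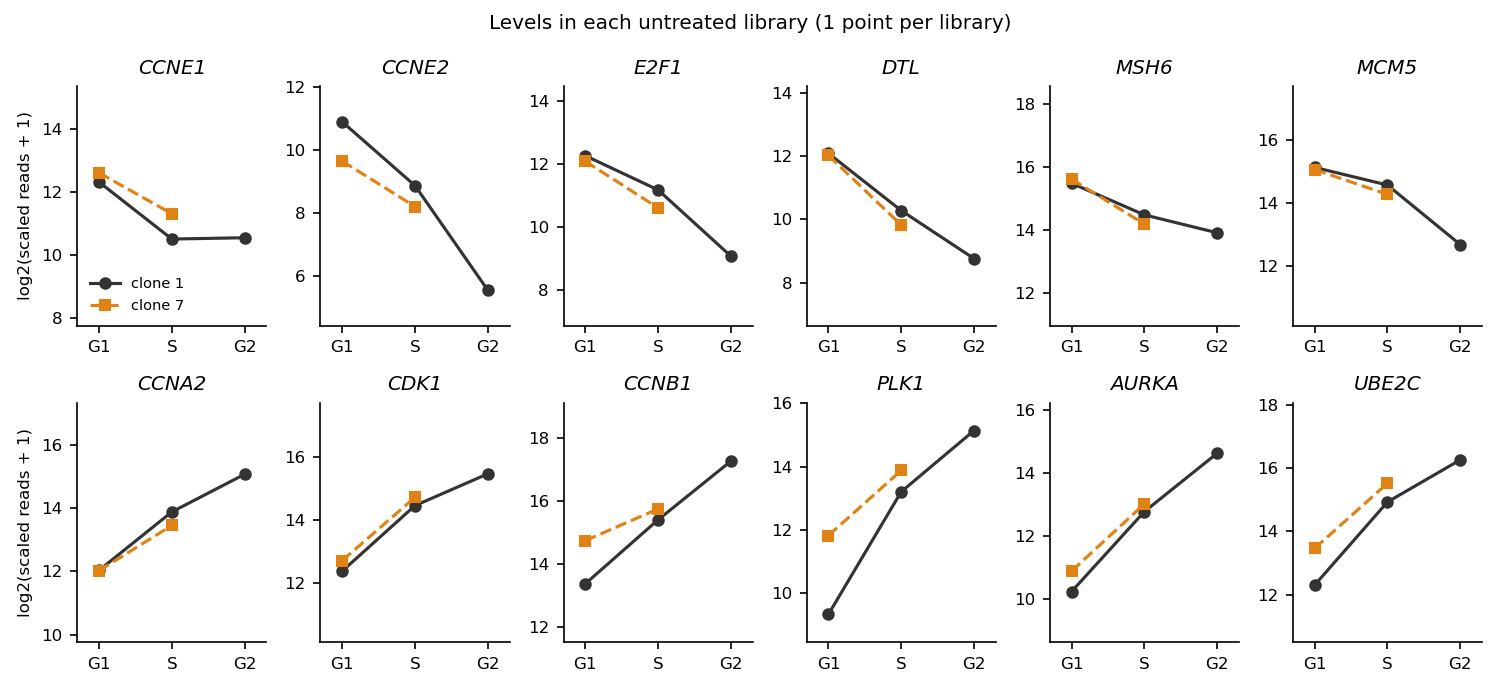
Level of 12 genes (vertical axes, log2 of scaled reads plus 1, each spanning the same range) in the untreated libraries, with lines joining the libraries of clone 1 (G1, S and G2) and clone 7 (G1 and S), 1 point per library. The genes of the upper row were lower in S than in G1 in both clones and those of the lower row were higher, with PLK1 in G1 at 9.32 in clone 1 and 11.82 in clone 7.

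Homologous recombination and Fanconi genes gave 1 call among 44 tested (2.27%), against 1.46% of all tested genes, with a median of 0.28. The called gene was RAD51AP1, higher in S at 0.92 ± 0.17 (adjusted p = 0.0395). FANCD2, the Fanconi protein that ubiquitin marks at crosslinks, lay just outside the threshold at 1.09 ± 0.22 (adjusted p = 0.0523). FANCI, its partner, differed by 0.82 ± 0.18 (0.0696) and RAD54L, a DNA translocase of recombination, by 0.71 ± 0.17 (0.092). None of the 16 tested checkpoint genes was called by limma, and 2 were called by voom. An unadjusted p under 0.05 stood at 6, against 1914 of all 12079 tested genes. S and G1 levels did not overlap for 7, against 31.1% of all tested genes. Among them MDC1, a scaffold at broken DNA, differed by 1.09 ± 0.22 (adjusted p = 0.0506), CHEK1, the checkpoint kinase of stalled forks, by 0.65 ± 0.22 (0.215) and WEE1, which restrains CDK1, by 0.52 ± 0.20 (0.261).

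Cohesin, the ring that holds sister chromatids, had 2 of 13 tested members higher, with a median of 0.32. CDCA5, or sororin, which protects cohesion, stood at 13.40 and 13.66 in G1 and 14.72 and 14.34 in S (1.00 ± 0.16, adjusted p = 0.0237). RAD21, the ring's kleisin, was higher within each clone, by 0.72 and 1.12 (adjusted p = 0.0319), while the groups overlapped because clone 7 had less in both phases. ESCO2, which acetylates cohesin during replication, differed by 1.06 ± 0.24 (adjusted p = 0.0778).

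Replication-dependent histone mRNAs end in a stem-loop and lack a poly(A) tail, so a poly(A) library holds few of them. Their 64 genes summed to 94 to 1253 reads in the 4 libraries, or 6.94 to 14.8 CPM (reads scaled to a library of 1 M), 13 had no read in any of the 4, and 0 passed the filter. Of the 12 tested histone genes with a polyadenylated mRNA, 3 were higher and 1 lower, with a median of 0.19. H2AX, the variant phosphorylated at DNA breaks, stood at 10.80 and 10.08 in G1 and 12.15 and 11.54 in S (1.41 ± 0.20, adjusted p = 0.0111). H3-3B, the H3.3 gene used outside replication, stood at 15.20 and 15.49 in G1 and 15.74 and 16.13 in S (0.59 ± 0.11, adjusted p = 0.0424).

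H2BC5, an H2B gene with a polyadenylated form, went the other way, from 9.29 and 8.86 in G1 to 7.29 and 6.91 in S (-1.98 ± 0.39, adjusted p = 0.0483), on 77 and 34 reads in S. H2BC12 and H1-2 differed by -1.19 and -1.10 in the same direction without a call (adjusted p = 0.0996 and 0.0797). SLBP, which binds the histone stem-loop, differed by -0.52 ± 0.14, with both S libraries below both G1 libraries (adjusted p = 0.122). In the list of histone supply and chromatin assembly, 0 of 30 tested genes were higher and only CDCA7 was lower, with a median of 0.12. Over all tested genes 1.09% were called higher and 0.364% lower. SUPT16H, a subunit of the histone chaperone FACT, differed by 0.63 in each clone (adjusted p = 0.066).

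The genes of G2 and mitosis were higher in S as a group. Of 50 tested, 44 were called higher and 0 lower. All 50 were higher in both clones, against 3465 of all 12079 tested genes. The median was 1.75 (2.03 in clone 1 and 1.33 in clone 7) against -0.04 over all tested genes. CDK1, the mitotic kinase, stood at 12.39 and 12.72 in G1 and 14.46 and 14.72 in S, with 15.47 in G2. Its difference was nearly equal in the clones, 2.07 and 2.0, and the fold was 4.11 (2.04 ± 0.13, adjusted p = 0.000632, chromosome 10, 60780166 to 60793975).

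The cyclins of S, G2 and mitosis were ordered alike. CCNA2, cyclin A2, stood at 12.04 and 12.03 in G1, 13.89 and 13.46 in S, and 15.08 in G2 (1.64 ± 0.16, adjusted p = 0.00291). CCNB1, cyclin B1, stood at 13.38 and 14.75 in G1, 15.41 and 15.75 in S, and 17.26 in G2 (1.51 ± 0.21, adjusted p = 0.00982). CCNF, the F-box cyclin, was 5.13-fold higher (adjusted p = 0.00213), while CCNB2, cyclin B2, was not called at 0.95 (adjusted p = 0.144).

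The mitotic kinases were higher as well. PLK1, which drives mitotic entry and spindle assembly, stood at 9.32 and 11.82 in G1, 13.20 and 13.88 in S, and 15.14 in G2. The difference was 3.88 in clone 1 and 2.06 in clone 7, without overlap (2.97 ± 0.35, or 7.84-fold, adjusted p = 0.00512, chromosome 16, 23678933 to 23690063). AURKA, the spindle pole kinase, was 5.03-fold higher, from 10.25 and 10.90 to 12.78 and 13.02 (2.33 ± 0.19, adjusted p = 0.00112). AURKB, of the chromosomal passenger complex, was 4.14-fold higher (adjusted p = 0.0111), and CDCA8, or borealin, a subunit of the same complex, differed by 2.46 in clone 1 and 2.44 in clone 7 (adjusted p = 0.00112).

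UBE2C, the E2 enzyme of the anaphase-promoting complex, stood at 12.30 and 13.47 in G1, 14.93 and 15.52 in S, and 16.27 in G2 (2.34 ± 0.16, adjusted p = 0.000632, chromosome 20, 45812696 to 45816767). TOP2A, the topoisomerase that untangles sister chromatids, stood at 11.98 and 14.48 in G1 and 15.47 and 15.99 in S, so its difference was 3.49 in clone 1 and 1.51 in clone 7 (adjusted p = 0.0114). MKI67, the proliferation marker Ki-67, had the same unequal pattern, 2.72 and 0.87 (1.79 ± 0.34, adjusted p = 0.0447). FOXM1, the activator of these genes, stood at 12.31 and 12.24 in G1 and 13.97 and 13.41 in S (1.42 ± 0.16, adjusted p = 0.00499).

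The 6 members of the G2 and mitosis list that were not called included CDC20, the anaphase activator, at 1.18 (adjusted p = 0.0553), PTTG1, securin, at 0.77 (0.141) and BUB3, a checkpoint protein, at 0.65 (0.0510). All were higher in S in both clones.

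FAM83D, which places casein kinase on the spindle, had the largest fold among the higher genes named by rule. It stood at 9.91 and 10.20 in G1, 13.41 and 13.15 in S, and 14.64 in G2, or 9.38-fold (3.23 ± 0.20, adjusted p = 0.000632, chromosome 20, 38926353 to 38952520). PSRC1, a microtubule protein of the spindle, was 5.83-fold higher, DEPDC1 5.51-fold, GTSE1, a microtubule-binding protein of G2 that restrains p53, 4.86-fold, and CDCA3, which targets WEE1 for degradation, 4.69-fold. Their adjusted p lay between 0.00112 for PSRC1 and 0.00696 for CDCA3. PIF1, a DNA helicase, had a still larger difference of 4.70 (adjusted p = 0.0145) but rests on 23 and 19 reads in the G1 libraries against 966 and 523 in S. It was named after its values were seen.

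Mitotic kinesins, motors that build and move the spindle, gave 10 calls of 13, all higher, with a median of 1.82 (2.20 in clone 1 and 1.11 in clone 7). KIF20A, needed for cytokinesis, stood at 10.10 and 12.23 in G1 and 13.64 and 13.67 in S (2.49 ± 0.39, adjusted p = 0.0175). KIF18B, which trims astral microtubules, was 4.47-fold higher with a closer match between clones, 2.37 and 1.96 (adjusted p = 0.0043). KIF2C, which corrects faulty attachments, and KIF23, of the central spindle, were each 3.91-fold higher (adjusted p = 0.00112 and 0.00517). KIF14, a kinesin of cytokinesis, was not called although it differed by 2.09 (adjusted p = 0.0602).

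Of 36 tested centromere and kinetochore genes, 13 were called higher and 0 lower, with a median of 0.73. A positive difference stood in 34 of them, against 5513 of all 12079 tested genes. CENPA, the histone H3 variant that marks centromeres, stood at 8.47 and 8.69 in G1, 11.09 and 10.75 in S, and 12.14 in G2, or 5.05-fold (adjusted p = 0.00578), and HJURP, its loading chaperone, was 4.40-fold higher (adjusted p = 0.00112). NDC80, the main coupler to microtubules, differed by 2.77 in clone 1 and 1.36 in clone 7 (adjusted p = 0.00813). CENPE, a motor counted in both lists, was 3.54-fold higher (adjusted p = 0.0104), and ZWINT, which links the KNL1 complex to checkpoint proteins, 2.42-fold (adjusted p = 0.00308).

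In the list of condensin and chromosome structure, 8 of 17 tested genes were higher and 0 lower, with a median of 0.91. NCAPG, a condensin I subunit, differed by 2.06 and 1.04 (1.55 ± 0.23, adjusted p = 0.0138), and NCAPD2 and NCAPH of the same complex were 2.66-fold and 2.47-fold higher (adjusted p = 0.0043 each). SMC2, the core ATPase, was 2.08-fold higher, with 1.08 and 1.03 in the clones (adjusted p = 0.0196). HMGB2, a DNA-bending chromatin protein, stood at 13.79 and 14.91 in G1 and 15.68 and 16.07 in S (adjusted p = 0.0043). KIF4A, a chromosome-bound kinesin, differed by 2.52 in clone 1 and 0.80 in clone 7 and was not called (adjusted p = 0.0511).

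The CDK inhibitors did not share a direction. Of 16 tested genes in their list, CDKN1B and CCNG2 were higher, 0 were lower, and the median was 0.25. CDKN1B, which encodes p27, stood at 11.65 and 11.86 in G1 and 12.65 and 12.73 in S (0.94 ± 0.16, adjusted p = 0.0295). CCNG2, an atypical cyclin tied to cell cycle arrest, was 2.15-fold higher (adjusted p = 0.0445). CDKN2D, or p19, differed by 2.21 and 1.93, on 84 and 12 reads in G1 (adjusted p = 0.0516). CDKN1A, which encodes p21, stood at 9.16 and 7.94 in G1 and 9.0 and 7.54 in S (adjusted p = 0.726).

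Of the 132 higher genes, 42 were in none of the lists. Examples among them follow, chosen after their values were seen and standing for no group. TUBA1A, an alpha-tubulin, stood at 13.68 and 12.42 in G1 and 14.85 and 14.36 in S (1.55 ± 0.18, adjusted p = 0.00512). TUBB, TUBA1B and TUBA1C were higher by 1.56-fold to 1.66-fold. Tubulin genes are near copies of each other, and how the counting shared their reads is not given in the sources used here. KPNA2, an importin that carries cargo into the nucleus, stood at 13.997 and 13.60 in G1, 15.63 and 15.47 in S, and 17.56 in G2 (1.75 ± 0.12, adjusted p = 0.000725). CSE1L, which exports KPNA2 back, was 1.55-fold higher (adjusted p = 0.032), and PTBP1, a splicing repressor, 2.12-fold (adjusted p = 0.0129).

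Outside the cell cycle, the largest decreases by the naming rule were in INHBA and MUC16. INHBA, the activin A subunit, stood at 12.09 and 11.23 in G1 and 10.23 and 9.79 in S, but at 11.64 in G2 (-1.65 ± 0.22, adjusted p = 0.00931). MUC16, the mucin that carries CA125, was lower within each clone, from 10.08 to 8.73 in clone 1 and from 12.59 to 10.79 in clone 7, and the groups overlapped because the clones differed more than the phases (adjusted p = 0.0148). KRT13, a keratin, was 2.65-fold lower in S, GBP2, an interferon-induced GTPase, 2.32-fold, IRX3, a homeobox factor, 2.27-fold, and PCDH7, a protocadherin, 2.23-fold. Their adjusted p were 0.0204, 0.0169, 0.0109 and 0.0268.

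SHISA9, an auxiliary subunit of AMPA receptors, differed by -0.74 and -1.69 (adjusted p = 0.045) with overlapping groups. EGFR, the oncogene of this line, stood at 12.52 and 13.89 in G1 and 12.41 and 12.59 in S, a difference of -0.11 in clone 1 and -1.30 in clone 7 that was not called (adjusted p = 0.227).

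Of 68 tested cytosolic ribosomal protein genes, 6 were called lower (RPL38, RPL34, RPS23, RPL22, RPS27A and RPL37A), 0 higher and 62 in neither direction, against 0.364% of all tested genes called lower. All 68 had a negative difference, against 6566 of all 12079 tested genes, and 66 had one in both clones, against 4182 of 12079. The median was -0.39 (-0.39 in clone 1 and -0.37 in clone 7). RPL38, the largest of the 6, stood at 16.51 and 17.13 in G1 and 16.04 and 16.28 in S (-0.66 ± 0.12, adjusted p = 0.0384), and at 17.27 in G2. These genes have many processed pseudogenes, and the handling of reads that fit several places is not given in the sources used here. The number called moved with the setting, from 6 as deposited to 33 by voom and 23 where libraries were scaled by the median of ratios.

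A few more of the lower genes are given as examples, named after their values were seen and standing for no group. FTH1, ferritin heavy chain, was 1.53-fold lower (adjusted p = 0.0284), S100A6, a calcium-binding protein, 1.60-fold (0.0388), TMSB10, an actin-binding thymosin, 1.75-fold (0.00921) and SLPI, a secreted protease inhibitor, 1.67-fold (0.0233). The median coding span was 12.6 kb for the 44 lower genes, 23.4 kb for the 132 higher genes and 25.02 kb for all tested genes. Reads on spans over 300 kb made up 0.734% and 1.05% of the reads in G1 and 0.733% and 0.726% in S, and mitochondrial mRNAs 6.07% and 10.7% in G1 and 6.34% and 9.14% in S. The part of span length or RNA quality in these differences was not tested.

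Lists of signalling and stress gave no called member by limma. Among 24 tested early response genes (median 0.01) 4 had an unadjusted p under 0.05, among 17 outputs of the ERK pathway (-0.03) 3, and among 27 quiescence and p53 genes (-0.07) 9. Over all 12079 tested genes the number was 1914. For 26 interferon-stimulated genes (-0.20) the number was 5 and for 32 genes of the unfolded protein response (0.07) it was 3. By voom 1 of the interferon-stimulated genes was called and 0 of the other lists just named. Cholesterol synthesis also had 0 calls among 24 by limma and by voom, with 12 at an unadjusted p under 0.05. Of these 24, 21 were higher in S in both clones, against 3465 of all 12079 tested genes, and the median was 0.30. SQLE, squalene epoxidase, differed by 0.49 ± 0.12 (adjusted p = 0.101). Ribosome biogenesis had 0 of 32 called by limma or voom, 1 at an unadjusted p under 0.05 and a median of 0.14.

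By their markers the libraries were epithelial, with few reads of the lung surfactant genes. The 13 epithelial and lung adenocarcinoma markers summed to 18971 to 29968 CPM in the 4 libraries, led by the keratins KRT7, KRT8, KRT18 and KRT19, while the surfactant genes SFTPB and SFTPC had under 10 reads in each. The lung lineage genes NKX2-1 and NAPSA were also low, at 3 and 2 reads in G1 clone 7 and 103 and 130 in G1 clone 1. Leukocyte markers (13 genes) summed to 8.16 to 17.1 CPM, with CD3D, MS4A1 and NKG7 at 0 in all 4 and PTPRC, the pan-leukocyte marker CD45, at 0 to 4 reads. CD68 held the most of these reads, 1361 and 40 in G1 and 359 and 214 in S. It and ITGAM were the 2 members that passed the filter. The leukocyte sum was 17.1 and 8.16 CPM in G1 and 12.0 and 13.8 in S, so it did not separate the phases. Fibroblast and endothelial markers (11 genes) summed to 21.3 to 26.8 CPM, with LUM at 0. COL1A1 held the most of their reads, 1854 and 133 in G1 and 721 and 374 in S. It, PECAM1 and CDH5 were the 3 members that passed the filter.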

How the data were processed

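For 9 libraries, the authors deposited log2 values of 80037 coding transcripts. HISAT2 2.1.0 (build GRCh38) and DESeq2 are listed, per the submitters' processing notes, without their roles. The read counter and the scaling are not given in the sources used here. Checked from the values, each is log2 of whole reads multiplied by a factor of the library, and 0.9 reads stand where there were none (100% of values up to 1000 reads lay within 0.05 of a whole number). Each row gives a coding span with its introns, and whether reads in introns were counted was not checked.

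Each of 20435 genes took its row with the highest mean. The log2 values were made linear, 1 was added and log2 taken again. A gene was tested if its mean log2 over the 4 libraries reached 7.01, which equals 10 reads at the lowest depth, and 12079 did. The fit used R 4.3.3 and limma 3.58.1 (lmFit, eBayes with trend, two-sided) with the clone as a block, with Python 3.11.15, numpy 2.4.6, pandas 2.3.3 and matplotlib 3.10.9 (tables read in R with data.table), and was tested on simulated data, in which the share of false calls came out above the 0.05 that the threshold allows. Libraries of 1 clone number pair the phases, since the labels give both phases the same clones. The deviation of clone 7 from clone 1 correlated at 0.690 between G1 and S over the tested genes. Depth was 8.83 to 108.7 M (mega) reads, and low genes in the shallowest library carry a wide counting error.

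The members and the gene lists were chosen with earlier results of these data known, and the lists come from general knowledge, with 2 distributed with Seurat. Named genes were, in each direction, the 12 largest differences among called genes with 1 sign in both clones and a mean of at least 10.33 (100 reads in the shallowest library), up to 5 of each list with the largest difference, and 20 genes whatever their result. Other list members named and genes outside the lists were picked after their values were seen. Some single genes are not reported here. Symbols of promoters and genes were matched to RefSeq windows of GRCh38.p14, and coordinates of coding spans come from GENCODE v29. Alternatives were other scalings, filters, pseudocounts, a voom fit, the fit without the block, all 9 libraries, the lowest row per gene, a 2-fold threshold and each library left out, with thinning of reads added after seeing the data.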

Additional observations from a re-analysis of the deposited data

Results flagged for a closer look

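The difference between S and G1 had opposite signs in clone 1 and clone 7 for several genes and lists described above or measured beside them. Whether the clones differ was not tested, since each clone gave 1 library per phase. CDC25A differed by -1.04 in clone 1 and 0.03 in clone 7, CDK6 by 0.025 and -1.85, PCNA by 0.12 and -0.26, and CCND1 by -0.020 and 0.29.

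Among the gene lists, medians were 0.22 in clone 1 and -0.15 in clone 7 for the Seurat S genes, 0.43 and -0.07 for CDK inhibitors and pocket proteins, and 0.24 and -0.0013 for histone supply and chromatin assembly. Mismatch and uracil repair stood at 0.19 and -0.14, the mRNAs of the mitochondrial genome at 0.056 and -0.31, ERK outputs at -0.070 and 0.10, glycolysis at -0.075 and 0.09, and the unfolded protein response at -0.012 and 0.09. The 2 tested leukocyte markers had a median of -0.41 in clone 1 and 0.74 in clone 7.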

How the results depend on the processing

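The count of 176 genes (132 higher, 44 lower) depended on the replicate block. It was 0 without the replicate block, 0 on 9 libraries with it and 0 on 9 libraries without it, and the same 3 fits left 0 called members in every list counted. The deviations of the clones pair the samples, as given for the processing. Leaving out 1 library gave 0 to 10 calls, 0 to 10 of them higher and 0 to 1 lower. It left 0 to 6 higher members of G2 and mitosis, 0 to 7 of Seurat G2/M, 0 to 1 of kinesins, 0 to 1 of kinetochore genes and 0 of condensin, and 0 lower Seurat S or ribosomal protein genes. These fits start from all 9 libraries, those kept in osimertinib included. They therefore do not show how the count of the 4-library fit depends on 1 library. They keep 1 residual degree of freedom. All genes called in the 4-library fit and named above kept their direction in every setting in which they were tested.

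Other settings raised the counts. Median-of-ratios scaling called 460 (300 higher, 160 lower), quantile scaling 400 (256 and 144), no filter 914 (424 and 490), a 50-read filter 274 (182 and 92), and voom 376 (230 and 146). Thinned to the shallowest library, a setting added after seeing the data, 240 were called (167 and 73). A 2-fold threshold left 19 lower genes. Pseudocounts of 0.1 and 5 gave 176 and 175. Of the 176, all were called again with median-of-ratios scaling, no filter and voom, and 112 were among the 170 calls with the lowest row per gene. Lower ribosomal protein genes numbered 23 with median-of-ratios scaling, 43 with no filter, 18 with the 50-read filter, 33 by voom, 17 with the lowest row and 18 thinned. Higher condensin genes numbered 13 with no filter, higher kinetochore genes 8 with the lowest row, and lower Seurat S genes 8 with no filter and 1 with the lowest row.

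Values near 0 changed sign. The Seurat S median was 0.043 by voom and 0.22 in clone 1 alone, and -0.23 to 0.32 with 1 library left out. CDC6 was 0.60 with the lowest row, and CDKN1A 0.0062 thinned. With 1 library left out, CCND1 ran from -0.37 to 0.65, CDK6 from -2.10 to 0.28, CDKN1A from -0.75 to 0.19, PCNA from -0.46 to 0.32, PTTG1 from -0.12 to 1.66 and TYMS from -0.0096 to 0.97. The cause was not tested. Depth limits genes with few reads in G1 clone 7. The filter was set on the mean log2 over the 4 libraries, at the value of 10 reads in that library. A tested gene can therefore have fewer reads there, as CDH5 did with 8.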
